A study of Homo sapiens with 4 samples.

Results

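The cytosolic ribosomal protein genes code for the protein part of the ribosome, and 90 of the 57820 annotated genes in the count tables belonged to this family. Members were protein-coding genes whose symbol is RPL, RPLP or RPS followed by a number, together with RPSA and FAU. The S6 kinase genes, antisense genes and pseudogenes were left out. The family held 78 genes of the standard ribosome, 8 paralogs with a near relative in the family, 3 readthrough genes that join a member to its neighbour, and 1 Y-linked gene that was counted but is given no value. Small subunit members numbered 35 and large subunit members 55. After 12 h with the inhibitor SGSS05-NS, 1 member, RPS27L, rose 2.92-fold and 1 member, RPL26, fell on the fragments that could be assigned to it. No other member was called at an adjusted p under 0.001 in edgeR's quasi-likelihood test. Of all genes tested, 6.37% were called higher and 8.14% lower. Of the 82 members with enough counts to test, 78 had a 95% interval of the log2 fold change that lay wholly between -0.5 and 0.5. Such an interval was found for 29.3% of all genes tested. Among other genes with at least 100 of every 1000000 assigned fragments the share was 55.2%.

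The experiment used SY5Y, an established human neuroblastoma cell line that the labels describe as MYCN wild type. Both groups were the same line harvested at 12 h, and by the labels they differed in the agent only. The controls received DMSO, the solvent, and the treated cells received SGSS05-NS, an inhibitor of SETD8, the enzyme that puts a single methyl group on histone H4 lysine 20 and on a p53 lysine. The labels give a dose of 3 μM, which legends of the study also name for this line at 12 h, whereas its methods name another dose. The study writes the compound as SGSS05-NS3, and its discussion also names an SGSS05-NS in the same series. It reports that SGSS05-NS3 inhibits several other methyltransferases too, at micromolar concentrations. There were 2 libraries per group, which the methods call independent biological replicates, and all came from a single cell line, so the p-values measure the spread between cultures of that line only.

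A ribosome is built from ribosomal RNA and a set of proteins, most of which are needed in equal numbers. Most of their genes are expressed at high levels in every growing cell. Their mRNAs are short and usually begin with a C followed by a run of pyrimidines, the 5′ terminal oligopyrimidine (TOP) motif, through which the mTORC1 pathway and the RNA-binding protein LARP1 control their translation. Several ribosomal proteins have a second known role: when ribosome assembly is disturbed, free RPL5 and RPL11 bind the p53 ubiquitin ligase MDM2, and RPS27L is itself a known p53 target gene. The family has also given rise to a very large number of processed pseudogenes, copies of the mRNA pasted back into the genome.

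The sequence around the start of the gene is shown for members that the results below turn on and for their relatives, because the pyrimidine run is found at many standard genes and at few of the paralogs. Each line gives 15 bases before the annotated start and 15 bases from it, 5′ to 3′ on the gene's strand, from the RefSeq promoter table of build GRCh38.p14. Capitals mark the unbroken run of C and T that begins at the start base. RPL26, RPS27, RPS6, RPLP1 and RPL22 are standard genes with the run, and RPL22L1 is a paralog with one. RPS27L, RPL26L1 and RPL11 have none at the annotated start.
RPL26 (chr17:8383179-8383208, minus strand): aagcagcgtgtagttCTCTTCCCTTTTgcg
RPS27 (chr1:153990747-153990776, plus strand): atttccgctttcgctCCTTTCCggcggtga
RPS6 (chr9:19380222-19380251, minus strand): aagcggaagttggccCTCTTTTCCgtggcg
RPLP1 (chr15:69452803-69452832, plus strand): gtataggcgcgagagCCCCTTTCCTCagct
RPL22 (chr1:6199581-6199610, minus strand): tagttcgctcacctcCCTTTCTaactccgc
RPL22L1 (chr3:170870181-170870210, minus strand): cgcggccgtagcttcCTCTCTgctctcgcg
RPS27L (chr15:63157463-63157492, minus strand): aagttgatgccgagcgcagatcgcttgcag
RPL26L1 (chr5:172958714-172958743, plus strand): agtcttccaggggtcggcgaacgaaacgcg
RPL11 (chr1:23691764-23691793, plus strand): cgcctcctggcccataaggccctcggccgg

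Of the 89 members without the Y-linked gene, 71 were in that table. A C at the start followed by at least 4 pyrimidines was present in 45 of the 71 (63.4%), against 4.04% of all 27305 promoters. The run was present in 43 of 63 standard genes and in 1 of 6 paralogs. With a tolerance of 3 bases on either side of the annotated start, 70.4% of the members and 13.1% of all promoters held it. The table holds 1 start per gene, which need not be the start used in SY5Y. In the 300 bases of the table's window, from 250 before the start to 50 after it, 5 motifs were searched on both strands, none of which contains another. CCGGAA, the core recognised by ETS factors, was in 53.5% of members and 17.6% of all promoters. AAGATGGC, a YY1 core, was in 11.3% and 3.03%, and GGGCGG, the GC box, in 54.9% and 44.6%. CACGTG, the E-box bound by MYC and its relatives, was in 5.63% and 7.43%, and TATAAA, the TATA box, in 9.86% and 12.0%. The mitochondrial ribosomal protein genes, a separate family, held CCGGAA in 56.5% of 69 promoters but the pyrimidine run in 7.25%.

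Each library had between 21463105 and 25350204 fragments assigned to genes on the strand of the gene. Fragments that map to several places were not assigned to any gene and made up 14.3% to 15.4% of all fragments. Of 12 neuroblastoma markers, 11 were above 1 CPM in every library (CPM is the count scaled to 1000000 assigned fragments) and TH was not, and their summed level was 4950 and 5330 CPM in DMSO and 3050 and 3010 CPM with SGSS05-NS. Markers of blood were above 1 CPM in every library in 0 of 5 cases and of epithelium in 1 of 5. Of 7 mesenchymal markers PDGFRA, PDGFRB and COL3A1 passed that level and PRRX1 and TWIST2 were at 0, with sums of 237 and 236 CPM in DMSO and 138 and 114 CPM with SGSS05-NS. The part of these marker shifts in the results below was not tested.

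Members were among the most abundant mRNAs in the cells. Per kb of mRNA, the median member had 1372 CPM in DMSO, against 13.2 for the other protein-coding genes tested, and 61 of the 100 highest protein-coding genes were members. The mRNAs were short, with a median of 681 bases against 2032 for the other protein-coding genes. The middle portion of the family lay between 927 and 1842 CPM per kb (quartiles), and 67 of the 82 members were above 500. RPS18 was highest at 4667 and 3658 CPM per kb in the DMSO libraries. RPS27 followed with 3923 and 3966, RPLP0 with 3547 and 3322, and RPS3A, also among the 5 highest, had 2873 and 2591. The values of RPS18 and RPS27 overlapped, so these neighbours did not differ beyond their spread, while RPLP0 and RPS3A each lay below the gene named before it in both libraries. Most paralogs were at the low end, with RPS27L at 44.39 and 37.03 CPM per kb, RPL22L1 at 37.9 and 38.6, RPL26L1 at 34.1 and 35.7, and RPL39L at 36.1 and 30.0. The standard genes RPL17, at 12.32 and 11.41, and RPS10, at 5.505 and 6.562, were lower still, and 100% and 92.1% of their coding bases also belong to a readthrough gene. Length is the median over the gene's protein-coding transcripts, which for RPL14 is 7072 bases and lowers its value.

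SGSS05-NS against DMSO was tested with the quasi-likelihood test of edgeR on all 16468 genes that passed the count filter, with Benjamini-Hochberg adjustment over all of them. At the study's threshold, an adjusted p under 0.001, 1 of the 82 members was higher, where the background was 6.37% of all genes, and 1 was lower, where the background was 8.14%. In either direction that is 2.44% of the members against 14.5% of all genes. At an adjusted p under 0.05, 2 members were higher and 2 lower, against 22.6% and 23.7% of all genes, or 46.3% in either direction. The likelihood ratio test, DESeq2 and limma each gave the same 1 higher and 1 lower member at 0.001. Among 2005 other genes of at least 100 CPM, 5.09% were higher and 13.0% lower, while of the 74 members at that level none was called by edgeR or DESeq2, and 3 had an unadjusted p under 0.05, against 53.5% of all genes and 55.8% of the other genes at that level.

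The size of the changes was small across the family. The members had a median log2 fold change of 0.037, with quartiles of -0.042 and 0.11, beside a median of 0.012 and quartiles of -0.34 and 0.40 for all genes tested. The small subunit had a median of 0.021 over 32 members and the large subunit of 0.053 over 50. An interval wholly within -0.5 and 0.5 was found for 78 of 82 members, 29.3% of all genes tested and 55.2% of the other genes of at least 100 CPM. The members outside it were RPS27L, RPL26, RPL17 and RPS10. Both treated libraries were above both DMSO libraries in 20 members and below them in 6, where the backgrounds were 37.8% and 36.9%.

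**Figure D1:**
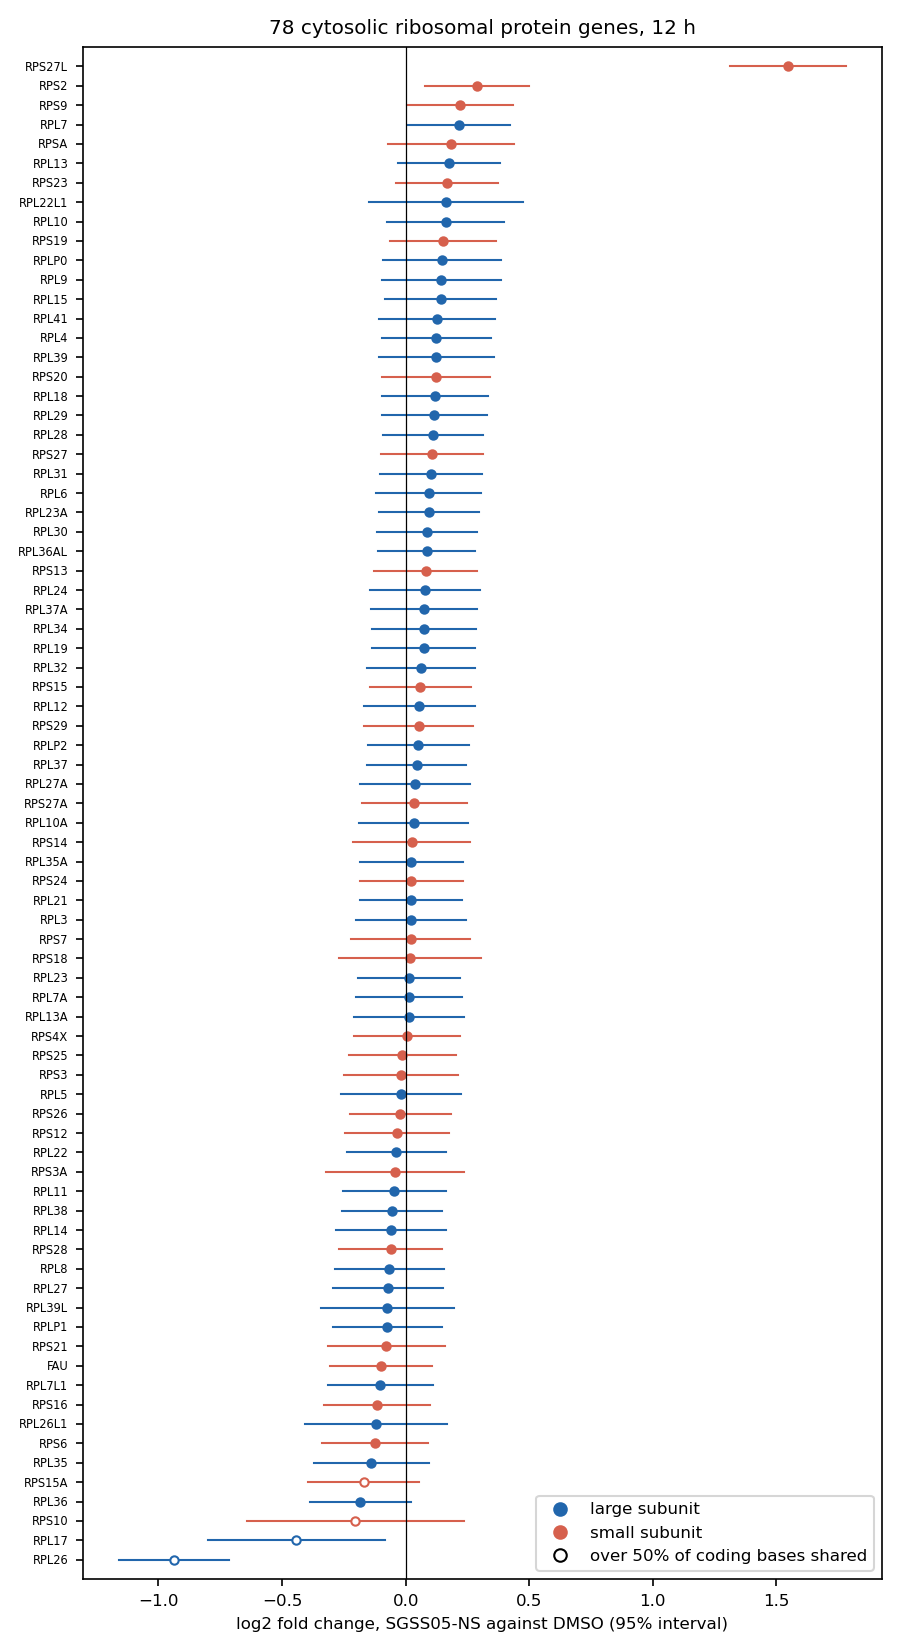
Log2 fold change of SGSS05-NS against DMSO (x axis) for 78 of the 82 tested members (y axis, ordered by value), with points for the edgeR estimate, bars for the 95% interval, blue for the large and red for the small subunit, and open points for the 4 members with over 50% of coding bases shared with another gene. RPS27L stands apart at 1.55 and RPL26 at -0.94, and the 4 open points all lie below 0.

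RPS27L (ENSG00000185088, chr15:63418071-63450220 in hg19, minus strand) is the paralog of the zinc-finger protein RPS27 and a p53 target gene. It had 35.9 and 29.9 CPM in the DMSO libraries and 98.2 and 94.1 CPM with SGSS05-NS. Both treated libraries were far above both controls, and the treated libraries lay close together. The log2 fold change was 1.55 (SE 0.11, adjusted p = 8e-07 in edgeR's quasi-likelihood test), a 2.92-fold rise with a 95% interval of 2.48 to 3.43. It was called under each of the 15 alternatives tried, with log2 fold changes from 1.40 to 1.67.

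RPS27, its standard partner, was not called. It had 1381 and 1396 CPM in DMSO and 1449 and 1541 with SGSS05-NS, a log2 fold change of 0.11 (95% interval -0.10 to 0.31). As a share of the fragments of the pair, RPS27L took 2.53% (Wilson 95% interval 2.37 to 2.70) and 2.10% (1.95 to 2.26) in DMSO. With SGSS05-NS it took 6.35% (6.09 to 6.61) and 5.76% (5.53 to 5.99). The shares of the groups did not overlap, and the exact two-sided permutation test gave p = 0.333, the smallest it allows with 2 against 2 libraries. The intervals cover counting error only.

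RPL26 (ENSG00000161970, chr17:8280834-8286531, minus strand) is a large subunit protein known to bind the p53 mRNA and raise its translation. It had 73.4 and 85.0 CPM in DMSO and 40.9 and 41.8 CPM with SGSS05-NS. The treated libraries were nearly equal and both lay below both controls. The log2 fold change was -0.94 (SE 0.10, adjusted p = 2.3e-05 in edgeR), with values from -1.05 to -0.85 over the alternatives, and it was called in all 15. Another annotated protein-coding gene on the same strand, ENSG00000263809, shares exons with it, and 71.0% of the coding bases of RPL26 lie in that gene too. A fragment in the shared bases was ambiguous and was not counted, so the value describes the remaining fragments, and the level of 79.2 CPM in DMSO understates the gene. ENSG00000263809 itself had 17 and 11 fragments in DMSO and 11 and 7 with SGSS05-NS. Whether the mRNA as a whole fell was not tested.

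RPL26 was 1 of 4 tested members with over 50% of their coding bases shared with another gene, a limit set after the values were seen. RPL17, at the exit of the peptide tunnel, shared 100% and had 218 and 188 fragments in DMSO against 127 and 155 with SGSS05-NS. Both treated values were below both controls, and the log2 fold change was -0.44 (SE 0.16, adjusted p = 0.044 in edgeR). RPS15A shared 54.6% and had 158 and 173 CPM in DMSO against 136 and 158, a log2 fold change of -0.17 (95% interval -0.39 to 0.05). RPS10 had 100 and 111 fragments in DMSO and 91 and 82 with SGSS05-NS, a log2 fold change of -0.20 (-0.64 to 0.24). All 4 were below 0, and the part of the overlap in that was not tested. Among the 78 other tested members the lowest was RPL36 at -0.18, and their median was 0.048.

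**Figure D2:**
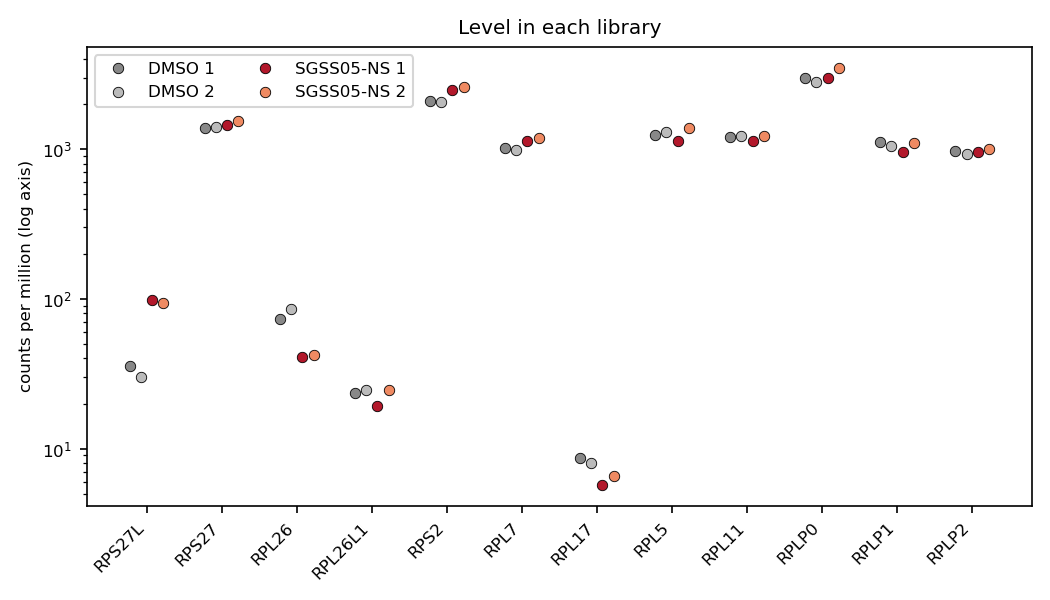
Level in CPM on a log axis (y) of 12 members (x) in each of the 4 libraries, with grey points for DMSO and red or orange points for SGSS05-NS. RPS27L is separated upward (35.9 and 29.9 against 98.2 and 94.1 CPM) and RPL26 downward, while RPL5, RPL11, RPLP0, RPLP1 and RPLP2 overlap between groups.

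The next members by p-value moved by far less. RPS2, at the mRNA entry of the small subunit, had 2088 and 2071 CPM in DMSO and 2487 and 2594 with SGSS05-NS. Both treated libraries were above both controls, and the log2 fold change of 0.29 (SE 0.10) had an adjusted p of 0.028 in edgeR, past 0.05 but not 0.001. Under the replicate block, without either DMSO library and when counted without regard to strand its adjusted p missed 0.05. RPL7 had 1013 and 981 CPM in DMSO and 1124 and 1193 with SGSS05-NS, a log2 fold change of 0.22 (adjusted p = 0.079). RPS9 had 446 and 411 CPM against 472 and 526 (0.22, adjusted p = 0.088), and RPL13 had 1282 and 1248 against 1400 and 1456 (0.17, adjusted p = 0.15). In each of these the treated libraries were above the controls without passing the test. On the other side RPL36 had 554 and 534 CPM in DMSO and 461 and 497 with SGSS05-NS (-0.18, adjusted p = 0.13). RPL35 had 741 and 654 against 589 and 679, and here the groups overlapped (-0.14, adjusted p = 0.31).

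The members known to bind MDM2 or to act on p53 were listed apart because p53 is a substrate of SETD8. Of 15, all tested, RPS27L was higher and RPL26 lower at 0.001, or 13.3% against 14.5% of all genes, and the median log2 fold change was 0.020. RPL5, which with RPL11 and the 5S ribosomal RNA forms the particle that holds MDM2, had 1246 and 1292 CPM in DMSO and 1123 and 1382 with SGSS05-NS. RPL11 had 1204 and 1230 against 1132 and 1225. The groups overlapped for both, with log2 fold changes of -0.02 (95% interval -0.26 to 0.22) and -0.05 (-0.25 to 0.16). RPL23, RPL37, RPS3, RPS7, RPS14, RPS15, RPS20, RPS25, RPS26, RPS27 and RPS27A ranged from -0.02 for RPS26 to 0.12 for RPS20, and none had an adjusted p under 0.34. RPS26 had 299 and 295 CPM in DMSO and 279 and 305 with SGSS05-NS, and RPS20 had 961 and 1020 against 1011 and 1144.

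The stalk proteins RPLP0, RPLP1 and RPLP2 form the flexible arm of the large subunit that recruits elongation factors. RPLP0 had 3002 and 2812 CPM in DMSO and 2958 and 3483 with SGSS05-NS. RPLP1 had 1114 and 1048 against 962 and 1091, and RPLP2 had 967 and 927 against 958 and 1004. The groups overlapped for all of them, and their log2 fold changes were 0.15 (-0.09 to 0.39), -0.07 (-0.29 to 0.15) and 0.05 (-0.15 to 0.25). By edgeR and DESeq2 at 0.001 the number called was 0 of 3, where the edgeR background was 14.5% of all genes. At an unadjusted p under 0.05 in edgeR it was also 0 of 3, against 53.5% of all genes. The members made as fusions to ubiquitin or a ubiquitin-like protein were not called either. RPS27A had 863 and 871 CPM against 842 and 936 (0.04), and FAU had 220 and 207 against 190 and 208 (-0.10).

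Of the 8 paralogs, 6 had enough counts to test. Among these 1, RPS27L, was called at 0.001, or 16.7% against 14.5% of all genes. RPL22L1, the relative of the RNA-binding protein RPL22, had 20.6 and 21.1 CPM in DMSO and 19.7 and 26.9 with SGSS05-NS (log2 fold change 0.16, 95% interval -0.15 to 0.48). RPL22 had 352 and 367 against 342 and 359 (-0.04). The share of RPL22L1 in the pair was 5.54% and 5.42% in DMSO and 5.46% and 6.98% with SGSS05-NS, which overlapped. RPL26L1 had 23.4 and 24.5 CPM against 19.4 and 24.7 (-0.12, -0.41 to 0.17), and its share of the pair with RPL26 was 24.2% and 22.4% in DMSO and 32.2% and 37.2% with SGSS05-NS. That share follows the RPL26 count. If fragments in the shared bases of RPL26 went uncounted, the share would be lower with them counted. RPL39L, best known from testis, had 26.3 and 21.9 CPM against 22.0 and 23.8, and RPL39 had 506 and 469 against 484 and 579. RPL7L1, a nucleolar relative of RPL7, had 261 and 295 against 263 and 255 (-0.10), and its share of the pair was 20.5% and 23.1% in DMSO and 18.96% and 17.6% with SGSS05-NS. The exact permutation p for that share was 0.333, the smallest possible. RPL36AL had 94.9 and 93.8 against 99.3 and 101 CPM (0.08), and its partner RPL36A, with 94.3% of coding bases in a readthrough gene, had at most 1 fragment in a library. RPS4X, the X-linked partner of a Y-linked gene, had 2196 and 2167 CPM against 2096 and 2286 (0.01).

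The 8 members not tested were those with almost no fragments. RPL10L, best known from testis, had at most 2 fragments in a library, and RPL3L, the striated muscle form of RPL3, had 0 and 2 in DMSO and 6 and 5 with SGSS05-NS. Their partners RPL10 and RPL3 were abundant and gave log2 fold changes of 0.16 (-0.07 to 0.40) and 0.02 (-0.20 to 0.24). The readthrough genes RPL17-C18orf32, RPL36A-HNRNPH2 and RPS10-NUDT3 had 0 fragments in each library. RPL36A and the Y-linked member were also among the untested genes.

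The other members are given by their range, all with an adjusted p of 0.17 or more. In the small subunit RPS24, RPS29, RPS13, RPS19, RPS23 and RPSA ranged from 0.02 to 0.18, and RPS6, RPS16, FAU, RPS21, RPS28 and RPS12 lay below 0, down to RPS6 at -0.12. RPS6, the substrate by which S6 kinase activity is often followed, was below both controls in both treated libraries, as were RPS16 and RPL38, without passing the test. In the large subunit 24 members ranged from 0.01 to 0.14, among them RPL13A, RPL7A, RPL21, RPL35A, RPL10A, RPL27A, RPL12, RPL32, RPL19, RPL34, RPL37A, RPL24, RPL30, RPL23A, RPL6, RPL31, RPL28, RPL29, RPL18, RPL4, RPL41, RPL15 and RPL9. RPL27, RPL8, RPL14 and RPL38 ranged from -0.07 to -0.06. RPS18 and RPS3A, among the most abundant per kb, had 0.02 and -0.04. Members with a small nucleolar RNA gene inside their bounds on the same strand, 29 of those tested, had a median of 0.051, and the other 53 had 0.024.

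A shift of most members together was seen between the treated replicates rather than between the groups. In SGSS05-NS replicate 2, 77 of 82 members (93.9%) were above replicate 1, with a median log2 ratio of 0.15, where all genes tested gave 52.5% and 0.014. In DMSO, 23 of 82 (28%) were above in replicate 2, with a median of -0.038, where all genes tested gave 49.9% and -0.0003. The shift was also seen outside the family: 17 of 18 other TOP mRNAs were above in treated replicate 2 (median 0.14), as were 7 of 8 elongation factors (0.13), 25 of 35 initiation factors (0.12) and 62 of 75 mitochondrial ribosomal protein genes (0.105), where the other genes of at least 100 CPM gave 53.3% and 0.013. The median difference between treated replicates was larger than the median difference of 0.037 between groups. Without treated replicate 1 the median over members was 0.11, and without treated replicate 2 it was -0.047. In such a fit the lone library of an arm is assumed to vary like the other group.

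**Figure D3:**
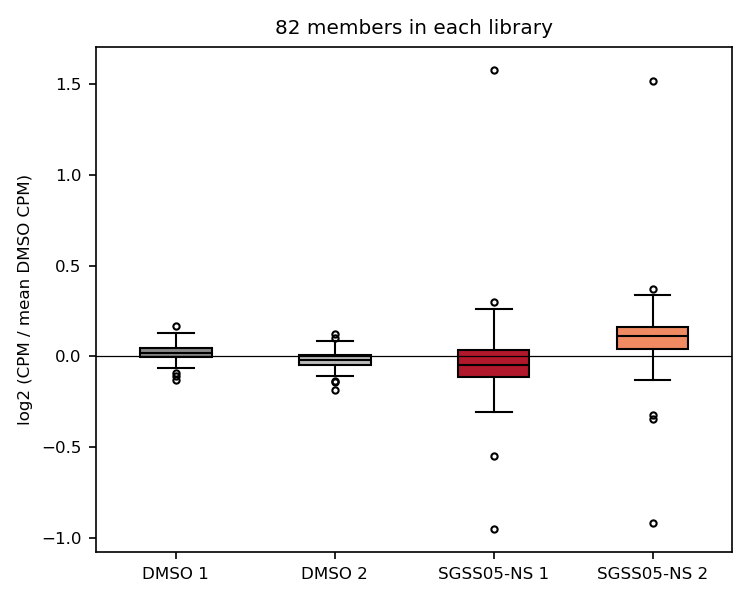
Log2 of CPM over the mean DMSO CPM (y axis) for the 82 tested members in each library (x axis), with boxes for the quartiles, lines for the median, whiskers to 1.5 interquartile ranges and points beyond. Treated replicate 2 sits above treated replicate 1 by a median of 0.15, and the farthest points in both treated libraries are RPS27L above and RPL26 below.

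As a share of all fragments assigned to genes, the members took 7.96% and 7.63% in DMSO and 7.99% and 8.52% with SGSS05-NS. Treated replicate 1 lay next to DMSO replicate 1, and the means were 7.79% ± 0.23 and 8.26% ± 0.38 (SD, n = 2 each; exact permutation p = 0.333, the smallest possible). As a share of all uniquely mapped fragments the values were 6.43% and 6.17% against 6.14% and 6.62%, and the groups overlapped. The fragments outside annotated exons, which enter only this second total, made up 12.4% and 12.3% of all fragments in DMSO and 16.1% and 15.3% with SGSS05-NS. Less RNA per cell, fewer cells and a change in the total cannot be told apart in such shares.

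Fragments on the pseudogenes named after members were lower with SGSS05-NS, and those on most parents were not called. The tables held 1598 of them, 845 with any fragment and 297 with enough to test, of which 294 are annotated as processed. Of the 297, 88 were lower and 1 higher at 0.001, against 8.14% and 6.37% of all genes, and the median log2 fold change was -1.30 (quartiles -1.54 and -0.88). Their summed fragments were 39846 and 39350 in DMSO and 21501 and 25011 with SGSS05-NS, which is 1.98% and 2.18% of the fragments on the members in DMSO and 1.25% and 1.23% in treated libraries. For 58 of 61 parents with a tested pseudogene, the median pseudogene lay below the parent. RPS27P19, for example, had 527 and 492 fragments in DMSO and 148 and 157 with SGSS05-NS (log2 fold change -1.66, adjusted p = 2.5e-06 in edgeR), next to the value of 0.11 for RPS27. RPL13AP22 had 768 and 776 against 234 and 279 (-1.51, adjusted p = 3e-06), next to 0.01 for RPL13A.

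Pseudogenes of other genes were lower too. The other processed pseudogenes, 743 tested, had a median of -1.05 with 104 lower and 3 higher at 0.001. The backgrounds were 8.14% and 6.37% of all genes, and in either direction the share was 14.4% against 14.5%. The copies of EEF1A1, chosen after their values were seen, had a median of -1.67 over 22. Ribosomal protein pseudogenes inside a protein-coding gene on the same strand had a median of -0.69 over 57, and the other 240 had -1.36. Of the 297, 31 were above 0 and 10 were higher at 0.05, where the background was 22.6% of all genes higher. RPL32P3 and RPS2P46 are named after seeing their values: RPL32P3, annotated as unprocessed, rose from 182 and 184 fragments to 334 and 519, and RPS2P46, which was not called, had 7935 and 7516 against 7827 and 8886. A pseudogene count holds fragments that differ from the parent at some base, and the share of fragments mapped to several places was 14.9% and 15.4% in DMSO and 14.4% and 14.3% with SGSS05-NS. Whether the fragments on pseudogenes came from the pseudogenes or from their parents was not tested. Adding them to the parents gave a member median of 0.015 in place of 0.037.

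**Figure D4:**
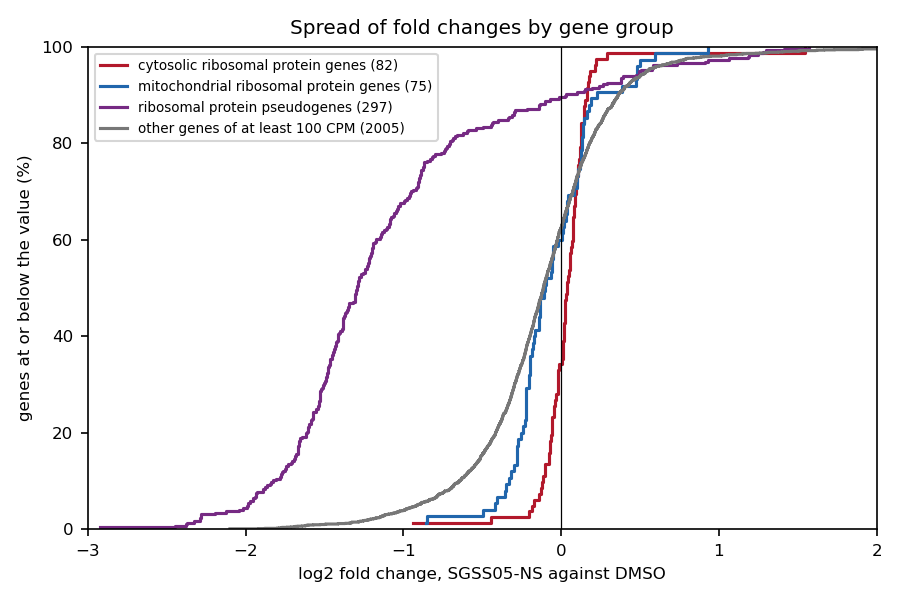
Cumulative share of genes (y axis, %) at or below each log2 fold change of SGSS05-NS against DMSO (x axis, shown from -3 to 2) for 82 members, 75 mitochondrial ribosomal protein genes, 297 ribosomal protein pseudogenes and 2005 other genes of at least 100 CPM. The member curve rises steeply around its median of 0.037, and the pseudogene curve lies to the left with a median of -1.30.

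Other genes of the translation machinery were described for comparison. Of 75 mitochondrial ribosomal protein genes tested, 2 were higher and 2 lower at 0.001 (all genes 6.37% and 8.14%), and 7 and 15 at 0.05 (22.6% and 23.7%), with a median of -0.10. MRPL18 had 38.9 and 37.4 CPM in DMSO and 68.8 and 76.5 with SGSS05-NS (log2 fold change 0.93, adjusted p = 1.9e-05 in edgeR), and MRPL24 had 57.8 and 56.8 against 30.4 and 32.7 (-0.86, adjusted p = 3.4e-05). Of 35 initiation factors, 4 were higher and 2 lower at 0.001, or 17.1% against 14.5% of all genes in either direction, with a median of 0.047. EIF5, the GTPase activator of start codon recognition, had 319 and 347 CPM against 592 and 756 (1.02), and EIF4G3, a scaffold of the cap-binding complex, had 84.5 and 113 against 42.6 and 41.0 (-1.24). Both were past 0.001 in edgeR and in all 15 alternatives.

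None of the 8 elongation factors and none of the 16 chaperones and escorts of ribosomal proteins passed 0.001 in edgeR. At an unadjusted p under 0.05 the counts were 5 and 4, where the background was 53.5% of all genes, and DESeq2 at 0.001 gave 1 elongation factor and 0 chaperones. EEFSEC, the selenocysteine elongation factor, had 18.4 and 21.0 CPM against 12.1 and 13.2 (-0.64, adjusted p = 0.002). EEF1A2 had 318 and 278 against 443 and 395 (0.49, adjusted p = 0.0024). RIOK2, a kinase of late small subunit assembly, had 28.8 and 25.8 against 35.0 and 42.8 (0.51, adjusted p = 0.0048), and HEATR3, an escort of RPL5, had 30.2 and 29.4 against 19.4 and 23.5 (-0.48, adjusted p = 0.0071). All of these passed 0.05.

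Of 18 other TOP mRNAs tested, 1 was higher and 0 lower at 0.001 in edgeR, with a median of 0.10. The higher one was VIM, with 37.7 and 36.8 CPM against 57.1 and 52.2 (0.55, adjusted p = 8e-04), a call that held in 8 of 15 alternatives, with adjusted p up to 0.0073. HNRNPA1 had 2008 and 1824 against 1373 and 1508 (-0.41, adjusted p = 0.0063), and DESeq2 gave it as 1 lower gene. At an unadjusted p under 0.05 there were 4, against 53.5% of all genes. A list of 29 tested regulators of mTORC1 and TOP translation, which also held the transcription factors MYC, MYCN and MAX, had a median of 0.050. At 0.001, 5 of the 29 were higher and 3 lower, or 27.6% against 14.5% of all genes in either direction. The 3 lower were RPTOR (-1.67), MYC (-1.1) and MYCN (-1.43), so that share is not one of mTORC1 pathway genes alone. SESN2 and SESN1, stress-induced inhibitors of mTORC1, stood at the top of that list. SESN2 had 7.33 and 6.51 CPM in DMSO and 91.8 and 103 with SGSS05-NS (3.82, adjusted p = 2.2e-09), and SESN1 had 28.6 and 25.9 against 99.1 and 89.5 (1.79, adjusted p = 2.3e-07). The counts measure mRNA and hold no reading of translation.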

How the data were processed

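Total RNA libraries of SY5Y cells were sequenced by the study. Per the labels, the submitters' processing notes name Trimmomatic 0.30, STAR 2.4.2a, build hg19 and edgeR 3.10.5, and the study's methods name GENCODE 19. The deposited values are raw counts of fragments per gene, in 3 columns for unstranded, forward and reverse counting; the reverse column was used, because the methods describe a stranded kit. STAR counts only fragments that map to 1 place and 1 gene. The labels and the methods name different TruSeq kits, and only the methods mention depletion of ribosomal RNA.

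Gene names, lengths and overlaps came from GENCODE 44 lifted to GRCh37, matched by gene ID (55538 of 57820), since the GENCODE 19 names themselves were not used here. Counts were tested with edgeR 4.0.16 (filterByExpr, TMM, quasi-likelihood F test) in R 4.3.3, and CPM is after TMM scaling. Alternatives used DESeq2 1.42.0 and limma 3.58.1 among others. Methods were checked on simulated counts. The members and lists were chosen with earlier results of these data known.

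Named members are the 5 higher and 5 lower with the smallest p, the 5 most abundant per kb, paralogs with partners, stalk genes, members tied to p53, and the 2 smallest p of each comparison list. Replicates carry the same numbers in both groups, and the sample titles do not say whether these pair the cultures. Their deviations were little correlated (r = 0.06 over tested genes, -0.14 over members), which does not settle it. They were treated as unpaired. With 2 libraries per group, precision rests on variance shared across genes. A few members are counted in the totals but are not reported here by name.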

Additional observations from a re-analysis of the deposited data

Results flagged for a closer look

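One value lies outside the comparisons above. Fragments on the strand opposite to ribosomal protein pseudogenes numbered 46.4 and 46.7 CPM, here scaled to assigned fragments with no TMM factor, in DMSO and 71.1 and 69.7 with SGSS05-NS, a treated mean of 70.4 above both controls. It was noticed because the forward-strand counts are used in no comparison. The same counts on the members were 231 and 228 CPM in DMSO and 135 and 159 with SGSS05-NS, so they lay the other way. RPS29 held 3525 and 3397 of those fragments in DMSO and 1259 and 1782 with SGSS05-NS, which is 60.2% and 63.0% in DMSO and 43.5% and 47.0% with SGSS05-NS. Neither difference was tested.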

How the results depend on the processing

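RPS27L and RPL26 were called, and no other member was, at an adjusted p under 0.001 in each of 15 alternatives. In the main fit at 0.05 the members called were 2 higher and 2 lower, all genes 3728 and 3903, and the comparison lists 25 and 33. Member calls at 0.05 were 4 and 1 with library size only, and 1 and 2 with the replicate block or without regard to strand. They also varied with the treated library left out. In the main fit 54 of 82 members were above 0, against 67 without treated replicate 1 and 30 without treated replicate 2. The counts that follow are at 0.001. The likelihood ratio test called 2022 genes higher and 2267 lower (lists 20 and 13), and no filter on low counts called 2034 and 2570 (lists 22 and 15). The numbers of the replicates were not taken to pair the samples. The replicate block called 1759 genes higher and 2007 lower, against 1049 and 1341 without it. It gave a member median of 0.034 and left RPS2 past no threshold. Leaving out 1 library at a time, with the lone library assumed to vary like the other group, gave 1037 to 1279 higher and 1322 to 1649 lower genes, 11 to 18 and 6 to 8 in the lists, 1 and 1 among members, member medians from -0.047 to 0.11, and a difference in the share of gene counts from 0.20 to 0.73 percentage points. The member median was -0.016 when counted without regard to strand, and the share difference was 0.082 percentage points of uniquely mapped fragments, against 0.037 and 0.46 as reported. The cause was not tested. VIM missed 0.001 in 7 alternatives, and EEFSEC, EEF1A2, HNRNPA1, RIOK2 and HEATR3 passed it in 1 to 5. The median SE of the members was 0.10 on the log2 scale, which limits the changes that 2 libraries per group can show.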
